A study of Sus scrofa with 4 samples.

Results

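Forkhead transcription factors were measured in sorted lung cells of pigs with the genotype LGR5-H2B-GFP knock-in, a reporter that places a green fluorescent histone under the control of LGR5, the gene of an R-spondin receptor. The members are the genes whose symbol begins with FOX, a letter from A to S and a digit, leaving out FOXJ1 and FOXP3, which gives 41 of the 29263 genes counted. Of these, 38 carried the symbol in the count tables, and FOXB2, FOXO3 and FOXP1 were listed by Ensembl identifier and named from a gene name table. All 4 libraries share the genotype and the tissue, lung, and differ in the sorted fraction: 2 libraries of bright cells (GFP-HI) and 2 of cells without fluorescence (GFP-NEG), numbered as biological replicates 1 and 2 in each fraction. The labels give no age. The protocol covers adult and fetal lung, and the name of the deposited comparison table speaks of adult pigs. The protocol also names EpCAM and NGFR antibodies for sorting without saying whether they were used for these libraries, and the number of animals behind a library is not given.

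Forkhead proteins bind DNA through a shared winged-helix domain, and the letter in each symbol names a subfamily. In the lung, FOXF1 and FOXF2 are mesenchymal factors that act downstream of hedgehog signalling from the epithelium, FOXA1 and FOXA2 are factors of the endodermal epithelium, and FOXP1, FOXP2 and FOXP4 act in lung epithelial development. FOXO factors are held out of the nucleus by phosphorylation downstream of PI3 kinase, and FOXM1 drives genes of mitosis in dividing cells.

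Library totals were 24200550 and 24689986 counts for GFP-HI, against 6292253 and 7045652 for GFP-NEG, so that GFP-HI was 3.67 times as deep on average. Levels are given as CPM, the count of a gene relative to its TMM-scaled library total. They depend on transcript length and are compared between libraries, not between genes. LGR5, on which the sort rests, was at 146 and 152 CPM in GFP-HI against 1.55 and 0.767 CPM in GFP-NEG. Genes that lung is not known to use were counted more often in GFP-NEG: among odorant receptor genes, 4.76% and 1.90% had a count in GFP-HI against 54.3% and 86.7% in GFP-NEG. Genes of any kind with a count numbered 18752 and 18392 in GFP-HI against 24120 and 25985 in the shallower GFP-NEG libraries. For differences in level, depth and sorted fraction cannot be told apart here, since both GFP-HI libraries were the deeper ones. In bulk libraries such as these, fewer cells of a type and less RNA per cell cannot be told apart.

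Of the 41 forkhead genes, 34 had at least 1 count and 21 passed the filter on low counts and were tested. FOXF1 was higher in GFP-HI, while FOXN2, FOXE1, FOXH1 and FOXI1 were lower, at an adjusted p-value under 0.05 (edgeR's quasi-likelihood test, adjusted over all tested genes). That is 1 member higher, beside 8.35% of all 19682 tested genes, and 4 lower, beside 27.6% of them. Of the 4, FOXE1, FOXH1 and FOXI1 passed the filter only through GFP-NEG. A share of 1 in 21 or 4 in 21 is no larger than these backgrounds. The median log2 fold change of the 21 tested members was 0.46, and that of all tested genes was -0.25. Plain library-size scaling moved the latter to -0.68 and upper-quartile scaling to -0.58, and the calls of these 5 members were the same under both.

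**Figure D1:**
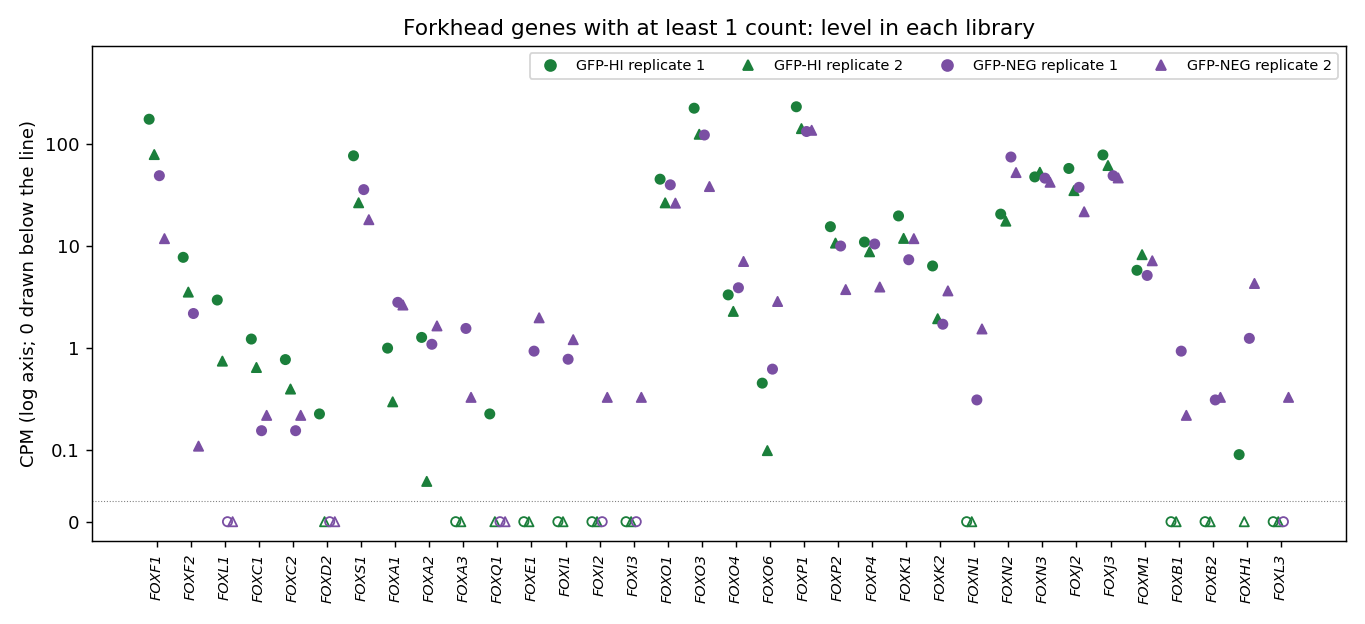
Level of the 34 forkhead genes with at least 1 count, in CPM on a log axis, with 1 point per library (green GFP-HI, purple GFP-NEG, circles replicate 1, triangles replicate 2; open points at the bottom are 0 counts). Genes are ordered by subfamily and heights are not comparable between genes; the 4 FOXF1 points run from 173 CPM in GFP-HI replicate 1 to 11.7 CPM in GFP-NEG replicate 2.

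FOXF1, required for the lung's mesenchyme and capillaries to form, was at 173 and 77.9 CPM in GFP-HI against 48.4 and 11.7 CPM in GFP-NEG. Both GFP-HI values lay above both GFP-NEG values, although each fraction varied between its replicates, by 2.22 times in GFP-HI and 4.13 times in GFP-NEG. FOXF1 rose by 2.06 on the log2 scale, with a standard error of 0.55 (125 ± 67.0 CPM in GFP-HI against 30.1 ± 25.96 CPM in GFP-NEG, mean and SD of 2 libraries each; adjusted p = 0.001, edgeR). The call was lost without GFP-HI replicate 1 (log2 fold change 1.47, adjusted p = 0.12) and without GFP-NEG replicate 2 (1.33, adjusted p = 0.38), fits in which the lone library was taken to vary like the others. The value was 3.47 without GFP-NEG replicate 1 (adjusted p = 0.0012, edgeR).

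FOXF2, the paralog that shares FOXF1's place in gut and lung mesenchyme, was at 7.70 and 3.52 CPM in GFP-HI against 2.17 and 0.110 CPM in GFP-NEG. The lowest value rested on 1 count. The groups did not overlap, and replicate 1 was again the higher library of each fraction. The log2 fold change of 2.35 (standard error 1.10) did not pass the threshold (adjusted p = 0.082, edgeR), and the 95% interval ran from 0.20 to 4.49. Single libraries moved it both ways: it was 5.64 without GFP-NEG replicate 1 (adjusted p = 0.0055, edgeR), 1.33 without GFP-NEG replicate 2 (adjusted p = 0.56, edgeR) and 1.75 without GFP-HI replicate 1 (adjusted p = 0.38, edgeR).

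In RefSeq's gene order for the Sscrofa11.1 assembly, these genes belong to a pair of forkhead clusters. One holds FOXL1, FOXC2 and FOXF1 in that order, and the other holds FOXQ1, FOXF2 and FOXC1. In the first, MTHFSD comes next after FOXL1 and overlaps FOXC2 and FOXF1. FOXL1, a hedgehog-responsive factor of mesenchyme beside gut epithelium, had 65 and 15 counts in GFP-HI against 0 in both GFP-NEG libraries. Pooled over each group, that is 9.82-fold higher in GFP-HI when GFP-NEG is set at the 3 counts that a count of 0 allows. Such a value bounds only the side with 0 counts. It leaves out the spread between the libraries of the other side and is no minimum. FOXL1 did not pass the filter on low counts. It was called higher with no such filter (adjusted p = 0.016, edgeR) and under DESeq2 (adjusted p = 0.025), and it was singled out here after its values were seen.

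FOXC1 and FOXC2, mesodermal factors known from vessel development, were low in every library. FOXC1 had 27 and 13 counts in GFP-HI against 1 and 2 in GFP-NEG, which is 1.22 and 0.645 CPM against 0.155 and 0.219 CPM. FOXC2 had 17 and 8 counts against 1 and 2. For both genes the GFP-HI libraries lay above the GFP-NEG libraries, and neither was called when tested without the filter (adjusted p = 0.35 and 0.55, edgeR). FOXQ1 had 5 counts, all in GFP-HI replicate 1.

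The cluster genes were also set beside their neighbours. IRF8, a factor of myeloid and B cells that lies next to FOXF1, was at 95.5 and 144 CPM in GFP-HI against 198 and 240 CPM in GFP-NEG (log2 fold change -0.87, adjusted p = 0.27, edgeR). MTHFSD, whose span overlaps those of FOXC2 and FOXF1 in that annotation, was at 27.3 and 16.1 CPM against 17.5 and 12.5 CPM (0.53, adjusted p = 0.50, edgeR). At the other cluster, EXOC2 and GMDS had log2 fold changes of 0.99 and 1.00, neither past the threshold (adjusted p = 0.25 and 0.14, edgeR). Whether counting used strand is not given in the sources used here, so reads of overlapping genes cannot be told apart.

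Hedgehog signalling, the pathway upstream of FOXF1 and FOXF2, was described with a list of 15 genes. Of 11 that were tested, 8 rose in GFP-HI and 3 were not called, beside 8.35% of all tested genes called higher. The median log2 fold change was 2.51 against -0.25 for all tested genes. GLI1, a transcriptional effector and target of the pathway, was at 42.8 and 33.7 CPM in GFP-HI against 1.86 and 3.51 CPM in GFP-NEG, and rose by 3.81 on the log2 scale (adjusted p = 1.4e-07, edgeR). PTCH1, the hedgehog receptor and itself a target, rose by 3.55, and the co-receptor BOC by 3.51 (adjusted p = 7.1e-07 and 6.8e-06, edgeR). SUFU, an inhibitor that binds GLI proteins, rose by 2.86 (adjusted p = 4.3e-05, edgeR).

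HHIP, a decoy that binds hedgehog ligands, was chosen after its values were seen. It was at 717 and 734 CPM in GFP-HI, 287 CPM in GFP-NEG replicate 1 and 24.6 CPM in replicate 2. The ligand genes SHH, IHH and DHH had 0 counts in both GFP-HI libraries and 3 to 10 counts in each GFP-NEG library. They did not pass the filter on low counts. Their GFP-NEG values, 0.466 to 1.10 CPM, lay in the range of odorant receptor genes, whose 95th percentile was 1.366 and 4.89 CPM there. Use of the ligands by GFP-NEG cells cannot be read from these counts. GLI3, CDON and DISP1 were the 3 genes not called, with log2 fold changes of 0.53, -0.47 and -0.23.

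**Figure D2:**
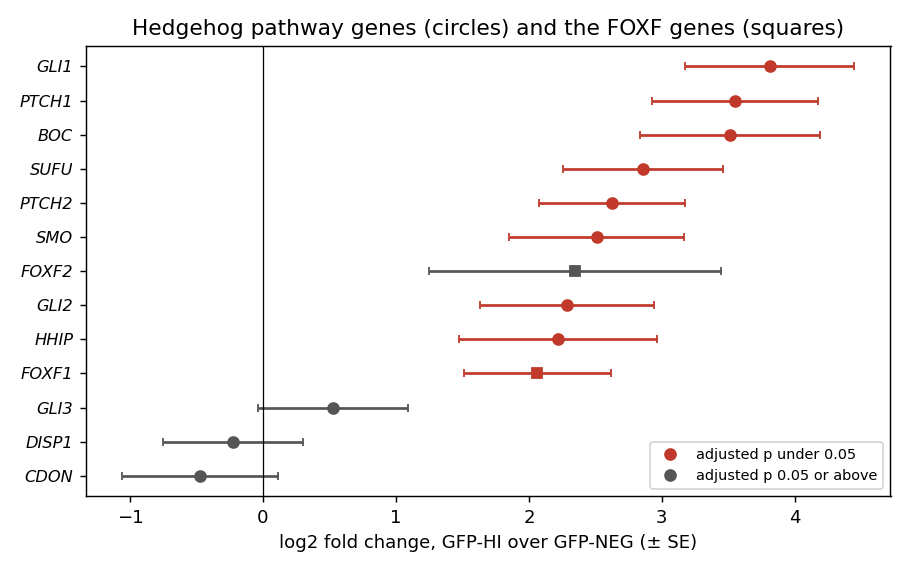
Log2 fold change of GFP-HI over GFP-NEG with its standard error for the 11 tested hedgehog genes (circles) and for FOXF1 and FOXF2 (squares), red where the adjusted p-value was under 0.05. The 8 called hedgehog genes lie between 2.22 (HHIP) and 3.81 (GLI1), and FOXF1 and FOXF2 lie at 2.06 and 2.35.

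FOXS1, a forkhead gene known from pericytes and sensory neurons, was at 75.8 and 26.3 CPM in GFP-HI against 35.4 and 18.0 CPM in GFP-NEG. The groups overlapped, since GFP-HI replicate 2 lay below GFP-NEG replicate 1. The log2 fold change of 0.94 (standard error 0.52) was not past the threshold (adjusted p = 0.15, edgeR). It was 0.10 without GFP-HI replicate 1 and 1.57 without GFP-HI replicate 2. FOXD1, a factor of stromal progenitors in kidney, and FOXD3, a neural crest factor, had 0 counts in all 4 libraries, and FOXD2 had 5 counts in GFP-HI replicate 1 alone.

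Cell type markers were read from the same fit to place the mesenchymal members. Counts of called genes in these and later lists stand beside 8.35% of all tested genes called higher and 27.6% called lower. Of 12 fibroblast markers, among them GLI1, 9 rose in GFP-HI and 3 were not called (median log2 fold change 3.49). The summed level of all 12 was 88560 and 84920 CPM in GFP-HI, 26610 CPM in GFP-NEG replicate 1 and 9522 CPM in replicate 2. Most of each sum came from COL1A1, COL1A2 and COL3A1, the 3 markers not called. FBLN1, an extracellular matrix gene, rose by 4.397 and DPT, which encodes dermatopontin, by 4.09 (adjusted p = 0.00025 and 1.1e-05, edgeR). PDGFRA, a surface marker of fibroblasts chosen after its values were seen, was at 822 and 563 CPM in GFP-HI against 97.2 and 22.7 CPM in GFP-NEG. The summed fibroblast markers, FOXF1, FOXF2 and FOXO3 were higher in GFP-NEG replicate 1 than in replicate 2, while GLI1 was lower there. The summed endothelial, smooth muscle and pericyte, alveolar, airway and ciliated-cell markers were also higher in that library, while summed immune markers were lower there. The part of fibroblasts or of other cell types in these differences was not tested.

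Endothelium, which also uses FOXF1 in lung capillaries, had 12 markers, of which 9 fell in GFP-HI and 3 were not called (median -2.17). Their summed level was 229 and 227 CPM in GFP-HI against 1494 and 623 CPM in GFP-NEG. CLDN5, a tight junction gene of endothelium, fell by 2.93 (adjusted p = 7e-05, edgeR), and KDR, the VEGF receptor, fell by 2.63 (adjusted p = 3e-05, edgeR). Of 12 smooth muscle and pericyte markers, 2 rose (PDGFRB by 2.57 and CSPG4 by 1.958) and 4 fell, among them MYH11, the smooth muscle myosin, at -2.34 (adjusted p = 0.00039, edgeR). Their summed level was 2141 and 2422 CPM in GFP-HI against 2486 and 391 CPM in GFP-NEG. No marker of these 3 lists was at 0 in both libraries of a group.

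FOXA1, an opener of chromatin in endodermal epithelium, was at 0.997 and 0.297 CPM in GFP-HI against 2.80 and 2.63 CPM in GFP-NEG. The groups did not overlap, and the log2 fold change of -2.05 (standard error 1.25) was not called (adjusted p = 0.20, edgeR). FOXA2, which acts with FOXA1 in lung branching and alveolar maturation, had 28 and 1 counts in GFP-HI against 7 and 15 in GFP-NEG. Its GFP-HI libraries lay on either side of the GFP-NEG libraries, with a log2 fold change of -1.04 (adjusted p = 0.54, edgeR). FOXA3, known from liver and goblet cells, had 0 counts in GFP-HI against 10 and 3 in GFP-NEG. With GFP-HI set at 3 counts, that is 11.8-fold lower over the group.

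Epithelial markers were measured beside these members. Of 11 tested alveolar markers, 4 fell in GFP-HI and 7 were not called, with a summed level of 272 and 296 CPM against 622 and 236 CPM. Of 7 tested airway markers, TP63 and KRT5, basal cell genes, fell and 5 were not called, with 176 and 227 CPM against 396 and 138 CPM. Among 11 tested ciliated-cell markers, TPPP3 rose (2.07, adjusted p = 0.0026, edgeR) and 10 were not called. The median log2 fold change was -0.77 for alveolar, -1.22 for airway and 0.24 for ciliated-cell markers, against -0.25 for all tested genes. Since 27.6% of all tested genes were called lower, the alveolar and airway counts are not read as a loss of epithelium, which was not tested.

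FOXE1, a thyroid factor, had 0 counts in both GFP-HI libraries and 6 and 18 in GFP-NEG, or 0.932 and 1.97 CPM. With GFP-HI set at 3 counts, FOXE1 was 21.7-fold lower over the group, and it was called (adjusted p = 0.00027, edgeR). FOXI1, the factor of proton-pumping ionocytes in airway and kidney, had 0 counts in GFP-HI against 5 and 11 in GFP-NEG. Set at 3 counts in GFP-HI, it was 14.5-fold lower over the group (adjusted p = 0.00057, edgeR). FOXH1, a partner of SMAD proteins in early embryos, had 2 and 0 counts in GFP-HI against 8 and 39 in GFP-NEG (log2 fold change -5.66, adjusted p = 0.0013, edgeR).

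These 3 genes passed the filter on low counts through GFP-NEG alone, the group where they are high, so that their calls add no support beyond that choice. They also sat at the level of genes that lung is not known to use. In GFP-NEG the 95th percentile of the odorant receptor genes was 1.366 CPM in replicate 1 and 4.89 CPM in replicate 2, against 0 in both GFP-HI libraries. FOXE1, FOXI1 and FOXH1 lay at or under that percentile in both GFP-NEG libraries, as did 16 of the 34 forkhead genes with counts, these 3 included. All 9 odorant receptor genes that could be tested were called lower in GFP-HI. Odorant receptor genes other than OR51E1 had at most 0.272 CPM in a GFP-HI library. They could pass the filter only through GFP-NEG, so their calls add no support either. Restricted to genes above this range, 17 members were tested, 1 was called lower (FOXN2) and 1 higher (FOXF1).

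With GFP-HI thinned to the GFP-NEG depth, FOXE1, FOXI1 and FOXH1 did not pass the filter and were not tested. FOXE1 was not called without GFP-HI replicate 1 or 2 (adjusted p = 0.095 and 0.10, edgeR), FOXI1 likewise (0.14 and 0.15, edgeR), and FOXH1 was not called without GFP-HI replicate 2 (0.099, edgeR). Without GFP-NEG replicate 2 none of the 3 passed the filter, and without GFP-NEG replicate 1 FOXI1 did not.

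**Figure D3:**
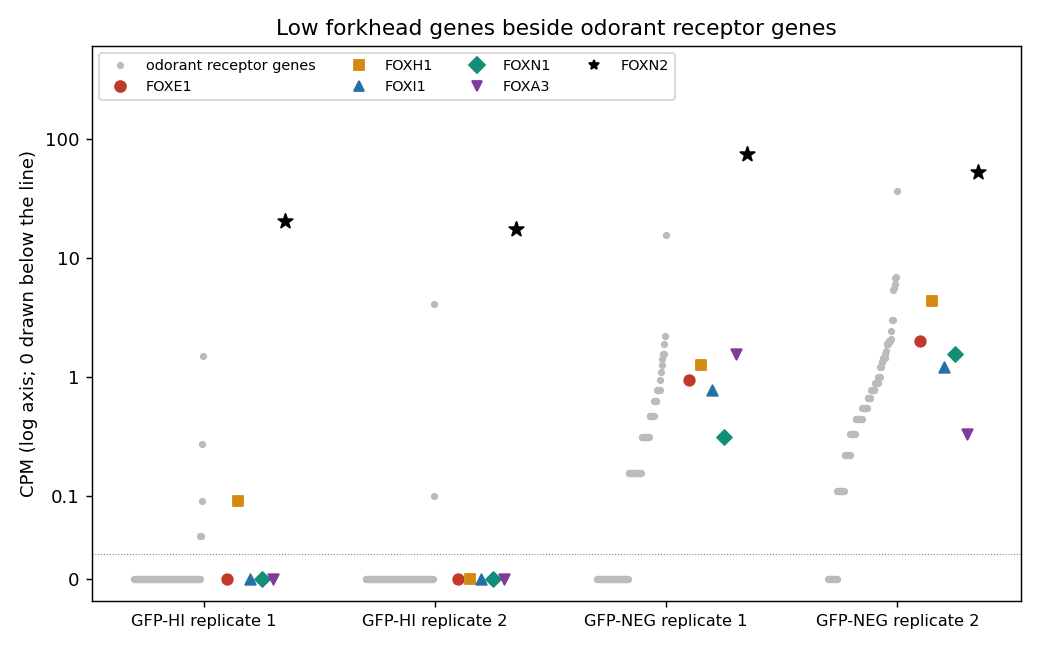
CPM on a log axis of odorant receptor genes (grey, sorted by level within each library, 0 drawn at the bottom) and of FOXE1, FOXH1, FOXI1, FOXN1, FOXA3 and FOXN2 in each of the 4 libraries. The first 5 lie among the odorant receptor genes in GFP-NEG, and FOXN2 lies above their 95th percentile in all 4 libraries.

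The other members of tissue-restricted subfamilies gave few counts. FOXN1, the master factor of thymic epithelium, had 0 counts in GFP-HI against 2 and 14 in GFP-NEG. FOXB1 had 0 in GFP-HI against 6 and 2 in GFP-NEG, and FOXB2 had 0 against 2 and 3. FOXI2, FOXI3 and FOXL3 each had 3 counts, all in GFP-NEG replicate 2. FOXO6, which is known from brain, had 10 and 2 counts in GFP-HI against 4 and 26 in GFP-NEG, and did not pass the filter. FOXD1, FOXD3, FOXE3, FOXL2, FOXR1 and FOXR2 had 0 counts in every library, which allows up to 0.0710 CPM in GFP-HI against 0.193 CPM in GFP-NEG (3 counts over each group, counting error only).

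FOXN2, a broadly expressed forkhead gene, was the one member that fell in GFP-HI and lay well above the odorant receptor range. It was at 20.4 and 17.4 CPM in GFP-HI against 73.8 and 52.0 CPM in GFP-NEG. The groups were far apart, with a log2 fold change of -1.73 (standard error 0.53; adjusted p = 0.0042, edgeR). Its call was lost without GFP-HI replicate 1 (adjusted p = 0.074), GFP-HI replicate 2 (0.11) or GFP-NEG replicate 1 (0.095, all edgeR), while the log2 fold change stayed between -2.002 and -1.41 when single libraries were left out. Immune markers also fell: of 13, 10 were called lower in GFP-HI and 3 were not called. Their summed level was 419 and 717 CPM in GFP-HI against 3809 and 5436 CPM in GFP-NEG. In each fraction that sum was higher in replicate 2, whereas FOXN2 was higher in replicate 1. Of the 12 endothelial markers above, 9 fell as well. The part of immune or endothelial cells in the fall of FOXN2 was not tested.

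Its relative FOXN3, a repressor linked to the cell cycle checkpoint, did not show this difference. FOXN3 was at 47.1 and 52.3 CPM in GFP-HI against 45.8 and 41.8 CPM in GFP-NEG (log2 fold change 0.18, 95% interval -0.82 to 1.19; adjusted p = 0.82, edgeR). All 4 values lay within a narrow range. The difference between FOXN2 and FOXN3 in their fold changes was not tested.

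FOXJ2 and FOXJ3, ubiquitous forkhead activators, were not called. FOXJ2 was at 57.0 and 34.6 CPM in GFP-HI against 37.3 and 21.5 CPM in GFP-NEG, with overlapping groups (log2 fold change 0.64, adjusted p = 0.35, edgeR). FOXJ3 was at 77.3 and 60.9 CPM against 48.4 and 46.0 CPM, with no overlap and a log2 fold change of 0.55 that was not called (adjusted p = 0.44, edgeR). FOXK1, a regulator of glycolysis and autophagy genes, was at 19.6 and 11.8 CPM against 7.30 and 11.7 CPM (log2 fold change 0.72, adjusted p = 0.39, edgeR). GFP-NEG replicate 1 was its lowest library, and the other GFP-NEG value was just below the lower GFP-HI value. FOXK2 was at 6.34 and 1.93 CPM against 1.71 and 3.62 CPM, with overlap (log2 fold change 0.62, adjusted p = 0.68, edgeR).

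FOXO3, an effector of quiescence and stress resistance, was at 221 and 123 CPM in GFP-HI against 121 and 37.9 CPM in GFP-NEG. The lowest GFP-HI value was just above the highest GFP-NEG value. The log2 fold change of 1.12 (standard error 0.58, 95% interval -0.01 to 2.25) was not called (adjusted p = 0.12, edgeR). Without GFP-NEG replicate 1 it was 2.23 and was called (adjusted p = 0.035, edgeR), without GFP-NEG replicate 2 it was 0.47 (adjusted p = 0.83, edgeR), and without GFP-HI replicate 1 it was 0.73 (adjusted p = 0.45, edgeR). FOXO1, the insulin-regulated member, was at 44.8 and 26.3 CPM against 39.4 and 26.1 CPM (log2 fold change 0.12, 95% interval -0.89 to 1.13; adjusted p = 0.89, edgeR). FOXO4 was at 3.31 and 2.28 CPM against 3.88 and 7.02 CPM, with both GFP-HI values below both GFP-NEG values (log2 fold change -0.97, adjusted p = 0.46, edgeR).

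Known FOXO target genes did not move in 1 direction. Of 17 tested, 2 rose, 3 fell and 12 were not called, with a median log2 fold change of 0.37. CAT, which encodes catalase, rose by 1.98 and SESN3, a sestrin that restrains mTORC1, by 1.32 (adjusted p = 0.032 and 0.047, edgeR). TRIB1, a pseudokinase gene, fell by 2.32, the growth arrest gene GADD45A fell by 1.73 and the cyclin gene CCNG2 fell by 1.48 (adjusted p = 0.00017, 0.010 and 0.018, edgeR).

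Of 11 tested genes of PI3 kinase, AKT and SGK signalling upstream of FOXO, 6 fell in GFP-HI and 5 were not called. PIK3CD, the leukocyte PI3 kinase catalytic subunit, fell by 3.76, and INPP5D, a lipid phosphatase of blood cells, fell by 3.42 (adjusted p = 1.7e-08 and 4.8e-07, edgeR). SGK1, a kinase that phosphorylates FOXO3, was at 45.6 and 76.5 CPM in GFP-HI against 639 and 492 CPM in GFP-NEG, and fell by 3.21 on the log2 scale (adjusted p = 0.00013, edgeR). INPP4B, another lipid phosphatase gene, fell by 2.36 (adjusted p = 0.0015, edgeR). The immune markers given beside FOXN2 fell as well, and the part of immune cells in the fall of these genes was not tested.

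FOXP1, FOXP2 and FOXP4, which repress transcription in developing lung epithelium, were not called. FOXP1 was at 229 and 140 CPM in GFP-HI against 131 and 135 CPM in GFP-NEG (log2 fold change 0.47, adjusted p = 0.58, edgeR). GFP-HI replicate 1 stood apart from the other 3 libraries, which lay between 131 and 140 CPM. FOXP2 was at 15.4 and 10.6 CPM against 9.94 and 3.73 CPM, with no overlap (log2 fold change 0.94, 95% interval -0.40 to 2.27; adjusted p = 0.30, edgeR). FOXP4 was at 10.9 and 8.73 CPM against 10.4 and 3.95 CPM, with overlap (0.46, adjusted p = 0.66, edgeR).

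FOXM1 was at 5.75 and 8.18 CPM in GFP-HI against 5.12 and 7.13 CPM in GFP-NEG. The fractions overlapped and replicate 2 was the higher library in both (log2 fold change 0.18, 95% interval -1.35 to 1.71; adjusted p = 0.88, edgeR). Of 14 tested mitotic genes known as FOXM1 targets, PLK1, a mitotic kinase, fell by 1.92 (adjusted p = 0.0024, edgeR) and 13 were not called, with a median of 0.06. Their summed level was 538 and 1057 CPM in GFP-HI against 621 and 1063 CPM in GFP-NEG, again higher in replicate 2 of each fraction.

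**Figure D4:**
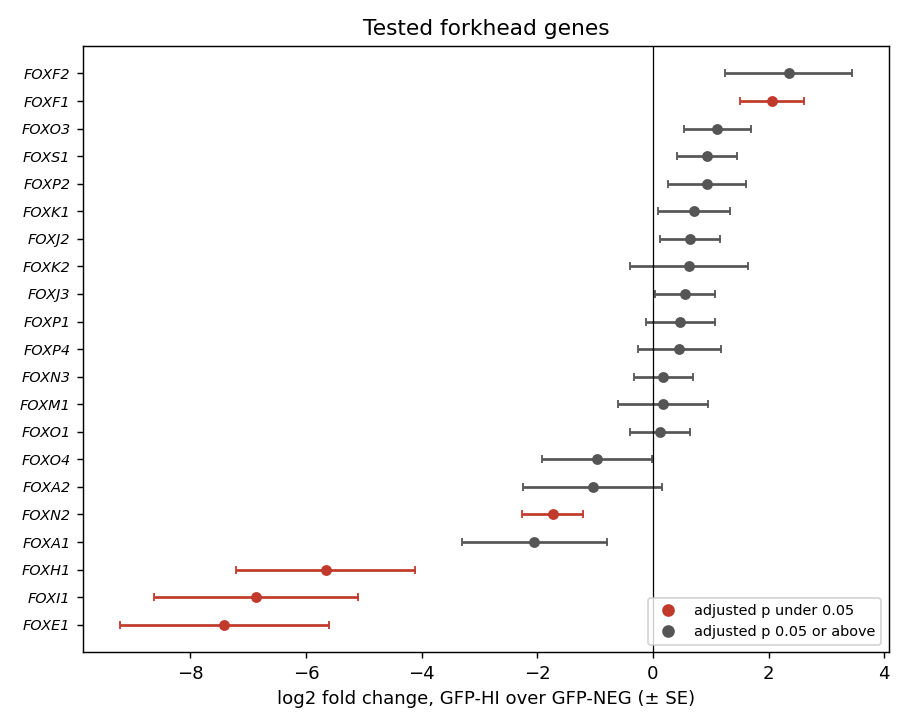
Log2 fold change of GFP-HI over GFP-NEG with its standard error for the 21 tested forkhead genes, red where the adjusted p-value was under 0.05. Above 0, FOXF1 is called at 2.06; below 0, FOXN2 is called at -1.73, and FOXH1, FOXI1 and FOXE1, with 0 to 2 counts in each GFP-HI library, have fitted values of -5.66 to -7.42 that depend on the fit and are no measure of size.

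Among the 21 tested members, the groups were fully apart with GFP-HI higher for 8 and lower for 6, beside 27.7% and 42.0% of all tested genes.

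The GFP-HI replicates differed in forkhead level. Of the 21 tested members, 17 (81.0%) were higher in GFP-HI replicate 1 than in replicate 2, beside 45.5% of all tested genes, and the median ratio was 1.65 for the members and 1.00 for all tested genes. FOXS1 differed by 2.88 times, FOXF1 by 2.22, FOXF2 by 2.19 and FOXO3 by 1.80, while FOXN3 and FOXM1 were lower in replicate 1, with ratios of 0.901 and 0.703. Between the GFP-NEG libraries, 12 of the 21 were higher in replicate 1. The summed fibroblast markers given above, made up mostly of collagen genes, were close in the GFP-HI replicates. Single markers differed in both directions, with COL1A1 at 19480 and 11910 CPM and LUM at 3200 and 6522 CPM, both chosen after their values were seen.

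The authors' deposited table of the comparison lists 19 of the 41 members and calls 1 higher and 1 lower at an adjusted p-value under 0.05. In the authors' deposited table FOXF1 has a log2 fold change of 2.06 (adjusted p = 0.013) and FOXN2 one of -1.74 (adjusted p = 0.0068). For FOXF2 the authors' deposited table gives 2.33 (adjusted p = 0.12) and for FOXO3 it gives 1.11 (adjusted p = 0.16). FOXE1, FOXH1 and FOXI1 are not among its 19 members.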

How the data were processed

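The authors deposited whole-number counts per gene for 4 RNA-seq libraries and a comparison table with a log2 fold change and an adjusted p-value (both named so per the file headers). The submitters' processing notes name featureCounts, Subread 1.5.2 and DESeq2 1.37.6. The aligner, strand setting and genome build are not given in the sources used here. All 4 count columns of the deposited table equal the single-library counts, and its 4 columns of normalized values were not used. The gene name table gave symbols for 844 identifiers, of which 834 were renamed.

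Counts of all 29263 genes were tested with edgeR 4.0.16 (R 4.3.3; filterByExpr, TMM, glmQLFit and glmQLFTest, group as the only term), with Benjamini-Hochberg adjustment over 19682 tested genes, which hold 99.8% of counts, and a threshold of 0.05. CPM uses TMM-scaled totals. Standard errors are the log2 fold change divided by the square root of F, and 95% intervals are normal ones from these. The test shrinks each gene's spread between libraries to a common trend (common dispersion 0.239), and p-values set the group difference against that spread. Whether it is a spread between animals is not known, as the number of animals behind a library is not given. The test was also run on simulated counts (20304 genes), with 200 genes changed by 2 or 3 on the log2 scale. There it recovered 9.35% of genes changed by 2 and 50.5% of those changed by 3, and 5.08% of 59 calls were false. The data gave 1643 higher and 5433 lower calls, and the adjustment is less strict where more genes change. The simulated shares therefore do not give the share of changes missed here.

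The replicate numbers were not taken to pair the fractions: the labels name no shared animal, and headings of the unused columns, which name pigs, do not all match the fraction whose values they carry. Between replicates, r on log2 CPM was 0.963 for GFP-HI and 0.900 for GFP-NEG. Values in every library are given for FOXF1, FOXF2, members called with a mean of at least 1 CPM in a group, and members with a mean of at least 10 CPM in a group. Other members are named from counts of 5 or fewer or to account for the members, apart from a result that is not reported here. From each list at most 4 called genes of the largest change are named, apart from those said to be chosen later, the hedgehog and fibroblast genes not called, and genes beside a forkhead cluster. The members, lists and alternatives were chosen with earlier results of these data known. No sequences are shown. Gene order came from RefSeq, which held 40 of the 41 members. Alternatives covered scaling, filtering, DESeq2 1.42.0, the replicate block, thinned depth, the odorant receptor range (genes above the 95th percentile) and leaving out each library.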

Additional observations from a re-analysis of the deposited data

How the results depend on the processing

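The count of members called higher was 1 and that of members called lower was 4. With no filter on low counts 2 were higher (FOXF1 and FOXL1, of 34 tested) and 6 lower, under DESeq2 2 were higher (the same genes), and with the replicate number as a block 2 were higher (FOXF1 and FOXF2, at 2.92 with adjusted p = 0.028, edgeR) and 3 lower, without FOXI1 (adjusted p = 0.058, edgeR). Same-numbered libraries share a biological replicate number, but no label names a shared animal. Headings that name pigs do not all match the fraction, so a pairing is possible and not shown. The deviations of same-numbered libraries from their group means correlated across genes at 0.179. The block changed no other call of a tested member. With at least 1 CPM in 2 libraries 2 were lower (FOXH1 and FOXN2), and 1 (FOXN2) was lower both after thinning GFP-HI and above the odorant receptor range, where fewer genes are tested. Leaving out single libraries gave 0 to 3 higher and 0 to 2 lower, with 1 library left in a group. FOXF1 and FOXN2 kept their call under the 9 alternatives that keep all libraries. Values near 0 changed sign. FOXM1 was at -0.17, FOXN3 at -0.14 and FOXO1 at -0.18 under upper-quartile scaling, and at -0.29, -0.24 and -0.26 with library size alone. After thinning, FOXN3 was at -0.025 and FOXO1 at -0.041. With single libraries left out, FOXK2 ranged from -0.30 to 1.35, FOXO1 from -0.19 to 0.53 and FOXP4 from -0.12 to 1.36. The cause of these changes was not tested. Over all genes, 1643 were higher and 5433 lower. Higher calls were 888 with library size alone, 1083 with upper-quartile scaling and 968 above the odorant receptor range, where 2715 were lower, and 3562 were lower after thinning. With single libraries left out, 216 to 1635 were higher and 1575 to 4999 lower, each lowest count without GFP-NEG replicate 2. One count was worth 0.110 to 0.155 CPM in GFP-NEG and 0.0453 to 0.0496 in GFP-HI, which limits what can be said of members under about 1 CPM.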
